A study of Mus musculus with 2 samples.

Results

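The clustered protocadherin genes of mouse chromosome 18 were examined for 5-hydroxymethylcytosine (5hmC), the oxidised form of 5-methylcytosine that the TET enzymes make. All cytosines listed on chromosome 18 from position 37085001 to 37990001 (mm9) were taken, which gave 5080 of the 13025343 cytosines in the table. The interval was divided by position alone into the alpha subcluster (37085001 to 37350001), the beta subcluster (37420001 to 37670001) and the gamma subcluster (37815001 to 37990001), with a gap between each neighbouring pair. The rule uses positions only. These borders are approximate, and the flanks of 1 Mb on either side served for comparison.

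The DNA came from E14, a mouse embryonic stem cell line in wide use, at passage 12, and the labels name no genotype, treatment or differentiation. In AbaSI sequencing, 5hmC is glucosylated, the enzyme AbaSI cuts DNA near the glucosylated base, and the cut ends are sequenced, so that each read points to a modified cytosine. The 2 libraries form 1 group. Their reads were deposited as 1 count per cytosine, so all values below lack a replicate error, and no test between samples was possible. Intervals at a level of 95% are exact (Clopper-Pearson for shares, Poisson for numbers of sites) and speak of counting error alone. They take sites and dyads as independent. Sites lay in clumps and some were listed in pairs, so the intervals can be too narrow. Read counts were given no interval, because without molecular identifiers several PCR reads can stem from 1 molecule. The table held 176006227 reads with a median of 9 per listed cytosine.

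Protocadherins are cell adhesion molecules of the cadherin superfamily. In the alpha and gamma subclusters, a row of large variable exons, each with its own promoter, is followed by constant exons that are shared by all transcripts of the subcluster. The beta genes consist of a single large exon each. Single neurons express different combinations of these genes, and the choice of promoter is known to go along with DNA methylation and with binding of the insulator protein CTCF. The gene table at hand, which is of the assembly GRCm38.p6 and was used for names and order only, lists 14 alpha genes (Pcdha1 to Pcdha12, then Pcdhac1 and Pcdhac2). It lists 22 beta genes, Pcdhb1 to Pcdhb22. It lists 22 gamma genes, of which 12 are of the A type, 7 of the B type and 3 of the C type, the last being Pcdhgc3, Pcdhgc4 and Pcdhgc5. Slc25a2, a mitochondrial carrier gene, and Taf7, a subunit gene of the general transcription factor TFIID, lie between the beta and the gamma genes. Diaph1, a formin gene, and Hdac3, a histone deacetylase gene, follow after the gamma genes. Values are given by position, since no gene positions of mm9 were used here.

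Listed cytosines were unevenly divided among the subclusters. Gamma held 2159 sites, or 1233.7 per 100 kb (1182.2 to 1286.9). Alpha held 1337 sites, or 504.5 per 100 kb (477.8 to 532.3), and beta held 1049, or 419.6 per 100 kb (394.6 to 445.8). Gamma thus had more than the other two by far more than counting error. The intervals of alpha and beta did not overlap with the borders as given, but with the right border of beta 15 kb further out beta had 452.1 sites per 100 kb (426.8 to 478.4), and they did. The gap between alpha and beta had 78 sites or 111.4 per 100 kb, and the gap between beta and gamma had 457 sites or 315.2 per 100 kb. The left flank had 777.5 and the right flank 1140.4 sites per 100 kb, and chromosome 18 as a whole had 488.2. Alpha and beta were therefore below both flanks. The interval of alpha included the value of the chromosome, that of beta lay below it, and that of gamma lay above the right flank that it adjoins.

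The subclusters had the same order by reads. Gamma had 15359.3 reads per 100 kb, alpha 5865.3 and beta 4517.2, compared with 10668.5 in the left flank, 17458.0 in the right flank and 5999.2 on the chromosome. Sites of the class 2CG, described below, were mostly listed in pairs of equal count, so the same reads can be counted at both members. With the paired classes 2CG and 2CH at weight 0.5, gamma had 13626.5, alpha 4814.3 and beta 4077.8. The flanks and the chromosome were not so weighted. Within each subcluster the spread was wide. Across windows of 10 kb, alpha ranged from 0 to 2139 reads with a median of 452, beta from 0 to 1590 with a median of 356, and gamma from 328 to 2904 with a median of 1638. The levels at single sites differed less. The median count per CG site was 8 reads in alpha, 9 in beta and 10 in gamma, against 10.5 and 12 in the left and right flanks and 9 on the chromosome.

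**Figure D1:**
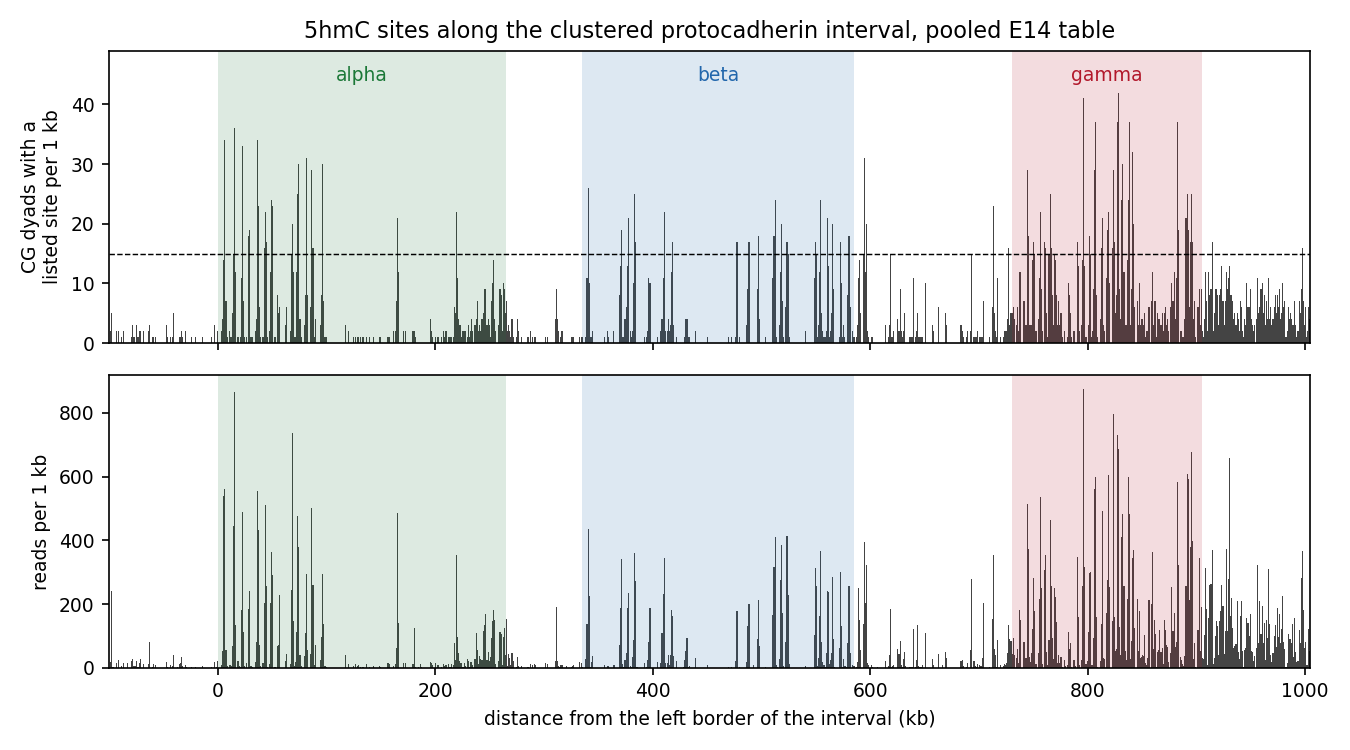
CG dyads with a listed site (top) and reads (bottom) per 1 kb bin, plotted against the distance in kb from the left border of the interval, with 100 kb on each side. Shading marks the 3 subclusters and the dashed line the 15 dyads that make a bin dense. Narrow peaks stand apart from nearly empty sequence in alpha and beta and lie closest together in gamma, where the highest bin has 42 dyads. In the 100 kb to the left of alpha no bin is dense, and the highest has 5 dyads.

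The track of sites along the interval shows narrow peaks, separated by nearly empty sequence in much of alpha and beta but not in gamma. To describe them, the 2 strands of each CG were joined into a dyad, and a bin of 1 kb was called dense when it held at least 15 dyads with a listed site. Of all 1 kb bins, 2.59% were dense on chromosome 18 and 3.29% on the 19 autosomes. Of the 905 bins in the interval, 92 or 10.2% were dense. Gamma had 40 dense bins of 175 (22.9%), alpha 23 of 265 (8.68%) and beta 22 of 250 (8.80%). In the left flank 4.50% of bins were dense and in the right flank 8.61%, so that alpha and beta resembled the right flank by this measure even though their sites were far fewer.

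The difference from the rest of the chromosome grew with the density required. Bins with at least 20 dyads made up 0.622% of chromosome 18 and 0.918% of the autosomes. The interval had 49 of them, or 5.41% of its bins, which is 8.70 times the share on the chromosome. The left flank had 6 and the right flank 15, each in a stretch longer than the interval. Bins with at least 30 dyads made up 0.0638% of chromosome 18 and 0.0818% of the autosomes. Here the interval held 16 of the 56 on the chromosome, or 28.6%, although it covers 1.03% of the chromosome's bins and has 1.19% of its listed sites. Of these 16 bins, 8 lay in gamma, 7 in alpha, 1 in the gap between beta and gamma and 0 in beta, where the highest bin had 26 dyads. With 2CG sites left out (a class described below, which lists cytosines in pairs), the interval held 4 of the chromosome's 19 bins at that density (21.1%). With at least 10 reads required of a site, it held 1 of 7 (14.3%), a share that rests on a single bin. The density of CG in the underlying sequence was not used here. A dense bin therefore shows many CG dyads with a listed site per kb, not a high level of 5hmC per CG. The part of sequence composition in these counts was not tested. Whether both cytosines of a 2CG pair are modified is not known here, so listed sites are not a count of modified cytosines.

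Compared with all 876 windows of 100 kb on chromosome 18, the window from 37900001 to 38000000, which covers the end of gamma and the sequence just past it, had the most bins with at least 20 dyads, 14 in number. The window from 37100001 to 37200000 in alpha came second with 13. Among the 24123 autosomal windows, 105 and 129 had at least as many. The alpha window reached this with a moderate total of 638 dyads, a number that 139 windows of the chromosome reached or exceeded. It also had 40 bins without any dyad. Its ratio of variance to mean of dyads per bin was 14.6, the highest on the chromosome, and 6 autosomal windows, itself included, reached that value. For the whole chromosome, the ratio over all bins was 5.05. Over the subclusters it was 13.1 in alpha, 11.3 in beta and 9.96 in gamma, against 3.82 and 3.15 in the flanks. The alpha window thus ranked higher by how unevenly its sites were placed than by how many there were, while the window at the end of gamma, with 937 dyads, ranked high by both.

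**Figure D2:**
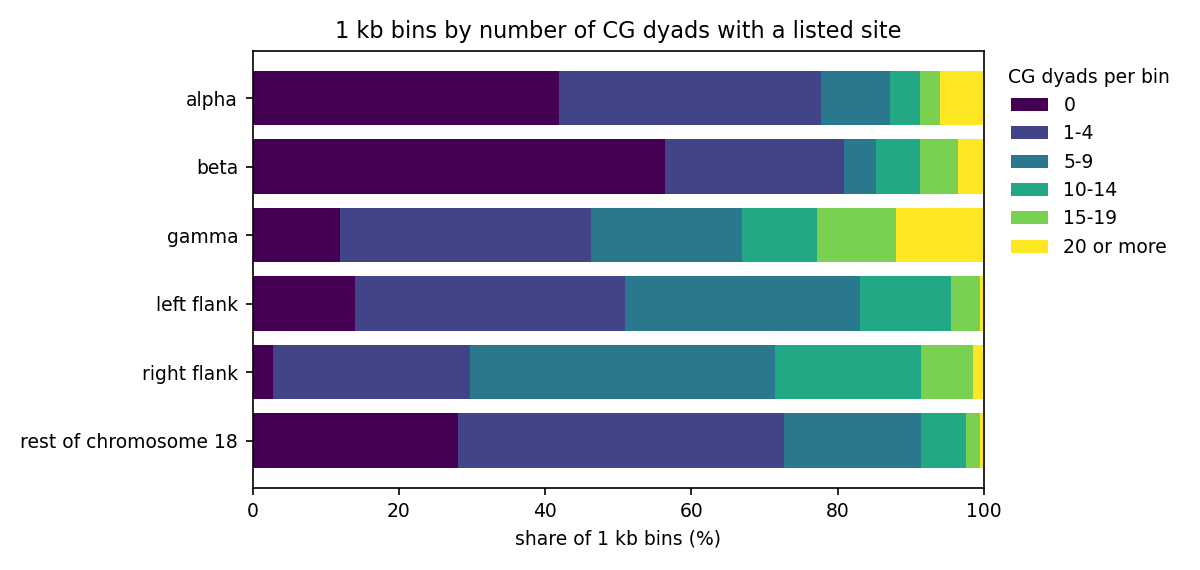
Share of 1 kb bins (%) by the number of CG dyads with a listed site, for the 3 subclusters, the 2 flanks of 1 Mb and chromosome 18 outside all of these. Alpha and beta have both more bins without a dyad (41.9% and 56.4%) and more bins of at least 20 dyads (6.04% and 3.6%) than either flank.

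Empty and dense sequence occurred side by side in alpha and beta. No cytosine was listed in 107 of the 265 bins of alpha (40.4%) and in 133 of the 250 bins of beta (53.2%), against 25.6% of bins on the chromosome. In gamma 18 of 175 bins (10.3%) were empty, in the left flank 12.6% and in the right flank 2.70%. A bin without a listed site is not a measured 0, because the sources used here do not give the minimum for listing. Dense bins held 53.4% of the listed dyads of alpha (50.3 to 56.5), 54.5% of those of beta (50.9 to 58.0) and 60.3% of those of gamma (57.8 to 62.7). The same share was 14.6% in the left flank, 20.8% in the right flank and 13.8% on the chromosome. Outside dense bins, the mean was 1.996 dyads per kb in alpha, 1.56 in beta and 4.53 in gamma, compared with 4.74 and 6.46 in the flanks.

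Dense bins with at most 1 other bin between them were joined into runs. Alpha had 14 runs, beta 18 and gamma 19, compared with 14, 22 and 22 genes in the gene table. The numbers are set side by side only, and no run was assigned to a gene. They depended on the threshold, with 16, 19 and 22 runs in alpha, beta and gamma at 10 dyads per bin, 13, 9 and 15 at 20 dyads, and 6, 2 and 13 when at least 10 reads were required of a site. Without 2CG sites there were 13, 13 and 17. Most runs were short. In alpha 6 runs spanned a single bin, 7 spanned 2 bins and 1 spanned 3 bins. In beta 14 spanned a single bin and 4 spanned 2 bins. In gamma 12 spanned 2 bins, and the longest run of the interval, the last of gamma, spanned 7 bins.

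Consecutive runs lay mostly 4 to 10 kb apart in each subcluster. The distance between centres had a median of 7.43 kb in alpha (13 distances, quartiles 6.51 and 9.68), 7.93 kb in beta (17 distances, 6.24 and 14.3) and 5.50 kb in gamma (18 distances, 4.54 and 6.05). In gamma the shortest distance was 3.75 kb, and 14 of 18 distances were between 4 and 10 kb, as were 10 of 13 in alpha and 11 of 17 in beta. In the left flank 10 of 32 distances were in that range, and in the right flank 29 of 62. Joining dense bins across 1 other bin leaves out the shortest distances in every region. Runs per 100 kb numbered 5.28 in alpha, 7.20 in beta and 10.9 in gamma. The left flank had 3.3 and the right flank 6.3, so that alpha was below the right flank. The flanks had wider quartiles, with a median of 16.7 kb on the left (8.78 and 21.99) and 9.94 kb on the right (5.31 and 21.2). Only gamma had its upper quartile below the lower quartile of the left flank. Reads that match several similar exons could shift counts between runs, and the sources used here do not give how such reads were treated.

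**Figure D3:**
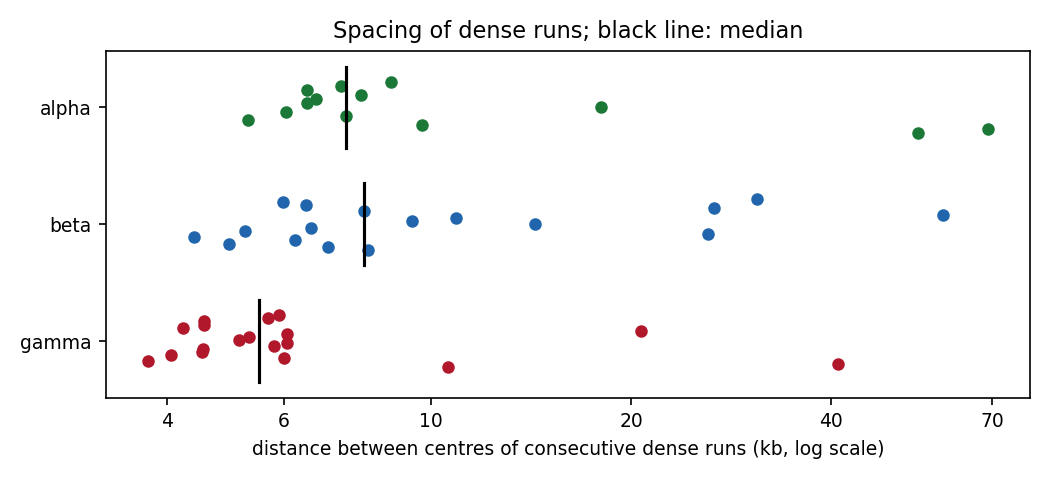
Distances in kb (log scale) between the centres of consecutive dense runs in alpha, beta and gamma, with 1 point per distance and the median as a black line. Most distances lie between 4 and 10 kb, and each subcluster has at least 2 longer than 20 kb.

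Each subcluster had a long stretch without a run, which was poor in sites in alpha and beta but not in gamma. In alpha the first 12 runs lay between 37091001 and 37182000, with distances of 5.30 to 18.01 kb. Then came 68 kb with 42 listed sites and 373 reads, the run from 37250001 to 37251000, and, at a distance of 54.0 kb, the last run from 37304001 to 37305000. In beta 6 runs between 37425001 and 37504000 and 12 runs between 37562001 and 37666000 were separated by 58 kb with 36 sites and 311 reads. In gamma 17 runs between 37829001 and 37928000 were followed by 39 kb without a run. That stretch had 274 sites and 3468 reads, or 702.6 sites per 100 kb against 61.8 and 62.1 in those of alpha and beta. The 2 last runs of gamma lay behind it.

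The longest stretch without any listed cytosine was of a similar size in alpha and beta, and the next were longer in beta. In alpha they were 18.2 kb from 37184034 to 37202266, 8.25 kb from 37272471 to 37280716 and 6.85 kb from 37234761 to 37241609. In beta they were 18.7 kb from 37535370 to 37554118, 14.8 kb from 37610376 to 37625207 and 11.1 kb from 37429418 to 37440508. In gamma the longest was 2.50 kb, from 37823946 to 37826440, followed by 2.05 kb from 37894264 to 37896310 and 1.84 kb from 37984272 to 37986109. The sequence between runs also differed in level, with 175.9 listed sites per 100 kb in alpha, 209.6 in beta and 634.8 in gamma. Alpha after its last run, a stretch of 45 kb, had 537.8 per 100 kb.

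The runs with the most dyads were larger in gamma than in alpha, and larger in alpha than in beta. The median run had 47 dyads in gamma (range 15 to 130), 36 in alpha (21 to 57) and 20.5 in beta (17 to 42). It had 17 in the left flank (15 to 87) and 18 in the right flank (15 to 104). The largest run of each flank was thus larger than every run of alpha and beta. The largest run of the interval was the last of gamma, from 37975001 to 37982000, with 130 dyads, 191 sites and 3126 reads. Its densest bin had only 25 dyads, so its size came from its length. The next was from 37912001 to 37914000 in gamma, with 79 dyads, 118 sites and 1417 reads in 2 bins, and it contained the densest bin of the interval at 42 dyads. The other 3 of the 5 largest in gamma, from 37891001 to 37893000, from 37907001 to 37910000 and from 37922001 to 37924000, had 66, 62 and 61 dyads.

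In alpha the largest run was from 37121001 to 37123000, with 57 dyads, 79 sites and 990 reads. The runs from 37127001 to 37130000 and from 37158001 to 37160000 had 55 dyads each, with 974 and 855 reads. The run from 37099001 to 37101000 had fewer dyads, 51, but more reads, 1310, and so 25.7 reads per dyad against 17.4 in the largest run. The fifth, from 37134001 to 37136000, had 47 dyads and 655 reads. Across the 14 runs of alpha the reads per dyad ranged from 9.45 to 28.0, a wider range than in beta (9.59 to 20.2) or gamma (13.8 to 24.4). The flanks ranged more widely, from 12.2 to 35.3 on the left and from 11.25 to 55.9 on the right. The highest value of alpha was that of the run from 37152001 to 37154000, with 35 dyads and 981 reads. These include a 2CG pair with 188 reads at each member. In alpha the run with the most dyads was thus not the run with the most reads per dyad.

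In beta the runs from 37468001 to 37470000 and from 37596001 to 37598000 had 42 dyads each, with 633 and 728 reads. The runs from 37608001 to 37610000 and from 37634001 to 37636000 had 32 dyads each, with 645 and 569 reads, and the run from 37425001 to 37426000 had 26 dyads with 435 reads. A further run lay outside the beta border, 8 kb past it, from 37678001 to 37682000. With 78 dyads and 1060 reads it was larger than every run inside beta, and its densest bin had 31 dyads. With the border 15 kb further out, beta had 25 dense bins. The other 4 runs of the gap between beta and gamma had 15 to 23 dyads and lay 14.1 kb or more apart.

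**Figure D4:**
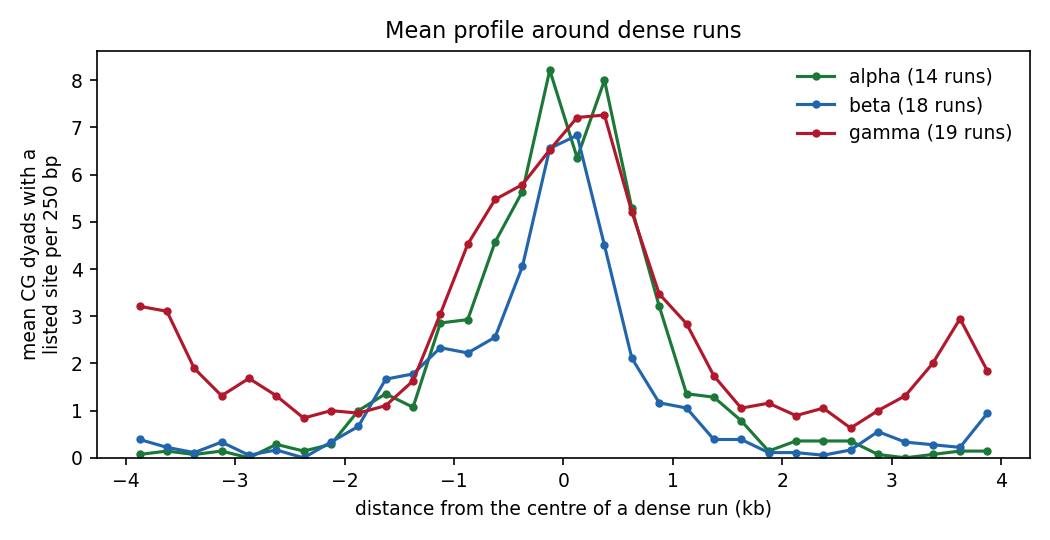
Mean number of CG dyads with a listed site per 250 bp, against the distance in kb from the centre of a dense run, for 14 runs of alpha, 18 of beta and 19 of gamma. At 875 bp on either side the mean is lowest in beta, and gamma stays above alpha and beta beyond 2 kb. Neighbouring runs are not left out.

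Around their centres, where values are high by construction, the runs reached 8.21 dyads per 250 bp on average in alpha (SD 3.29 over 14 runs), 6.83 in beta (SD 2.12 over 18 runs) and 7.26 in gamma (SD 4.47 over 19 runs). At 875 bp to the right of the centre the means were 3.21 in alpha, 1.17 in beta and 3.47 in gamma. At 2125 bp to the right they were 0.36, 0.11 and 0.89. At 875 bp to the left they were 2.93, 2.22 and 4.53. To the right the means of alpha were close to those of gamma at 875 bp, and to the left they were lower. Beyond 2 kb the mean profile was higher in gamma. Neighbouring runs were not left out of it, and those of gamma had a median distance of 5.50 kb. The gamma mean rose from 0.63 at 2625 bp to the right to 2.95 at 3625 bp, so these values can include the next run.

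Strand pairing was lower in the interval than around it. Both strands were listed for 27.1% of the dyads in alpha (24.4 to 29.9), 28.8% in beta (25.7 to 32.2) and 37.7% in gamma (35.2 to 40.1). The share was 42.0% in the left flank (40.6 to 43.3), 47.8% in the right flank (46.7 to 48.96) and 34.2% on the chromosome (34.1 to 34.4). Alpha and beta were thus below the chromosome and gamma above it, and the interval of each lay below that of both flanks. Among dyads with a site of at least 10 reads, a restriction chosen after the data were seen, the shares were 40.9% in alpha (36.6 to 45.3), 45.8% in beta (40.7 to 51.1) and 52.6% in gamma (49.2 to 55.9). The flanks then had 56.7% (55.0 to 58.4) and 61.3% (59.9 to 62.6), and the chromosome 51.1%. The interval of gamma then included the chromosome and overlapped that of the left flank.

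The low strand pairing was also found when dense bins with similar numbers of listed dyads were compared. In bins of 15 to 19 dyads, 32.2% of dyads in the interval were listed on both strands (28.8 to 35.7), against 47.3% on chromosome 18 outside the interval and its flanks (46.7 to 47.9). In bins of 20 to 29 dyads the shares were 39.9% (36.5 to 43.5) and 47.8% (46.9 to 48.8), and in bins of 30 or more they were 32.1% (28.2 to 36.1) and 45.7% (43.0 to 48.5). Reads moved with it. In the same 3 classes the median dyad had 11, 14 and 12 reads in the interval and 17, 18 and 16 outside, and the part of read depth in the lower pairing was not tested beyond the restriction above. Bins of 10 to 14 dyads, which are not dense, had shares of 32.5% (28.7 to 36.5) and 42.7% (42.3 to 43.1). The median dyad there had 11 and 15 reads. In bins of 1 to 4 dyads the shares were 18.8% (15.7 to 22.3) and 20.4% (20.1 to 20.7). In bins of 5 to 9 dyads they were 30.3% (26.5 to 34.2) and 34.0% (33.7 to 34.3). No difference was detectable in these last classes, below 10 dyads, at this depth. Single runs differed widely in pairing, from 10.8% to 61.9% in alpha, 5.88% to 52.6% in beta and 23.1% to 47.1% in gamma. Many runs were small, so counting error is large here. The run with 61.9% had 21 dyads and that with 5.88% had 17. Runs of the flanks also differed widely, from 18.75% to 81.25% on the left and from 18.75% to 75% on the right.

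**Figure D5:**
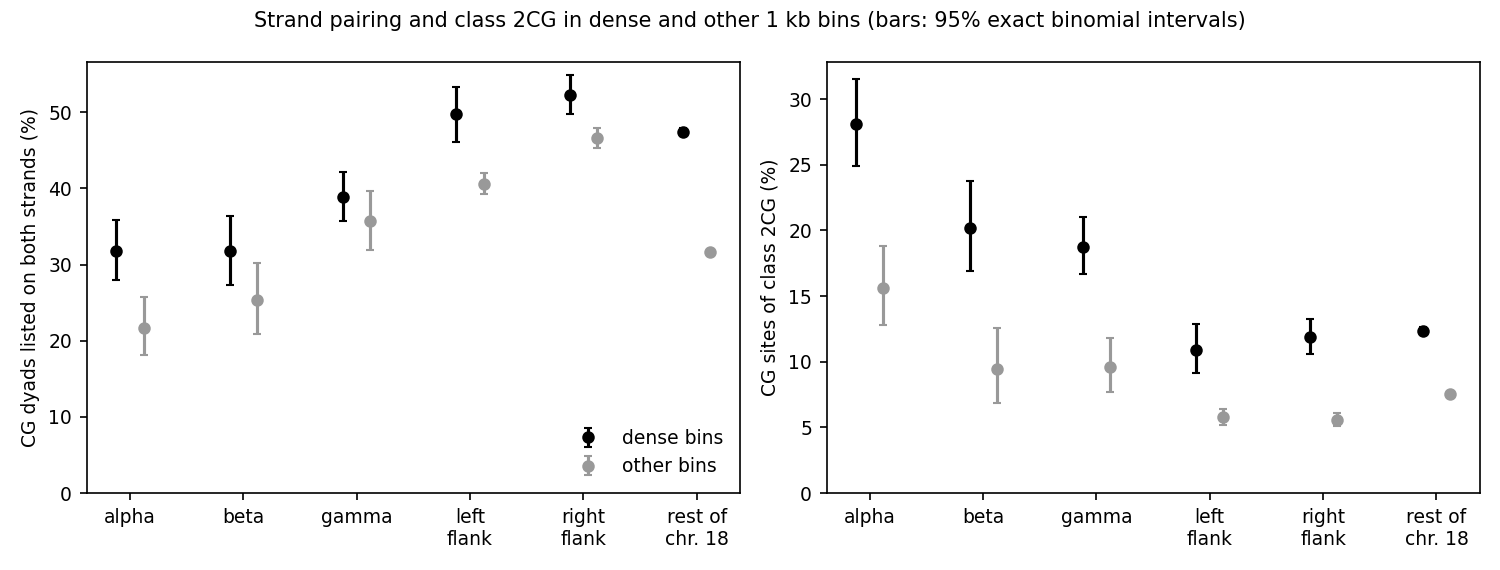
Share of CG dyads listed on both strands (left) and share of CG sites in the class 2CG (right), both in %, for dense (black) and other (grey) 1 kb bins of each subcluster, each flank and the rest of chromosome 18, with exact 95% binomial intervals. Dense bins of the subclusters have a lower pairing and a higher 2CG share than dense bins elsewhere.

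The class codes of the table differed most in 2CG. In alpha 22.6% of CG sites had this code (20.3 to 24.9), in beta 15.4% (13.2 to 17.8) and in gamma 15.2% (13.7 to 16.8). The flanks had 6.56% (6.01 to 7.15) and 6.94% (6.47 to 7.43), and the chromosome 8.31% (8.22 to 8.39). The sources used here do not give the meaning of the code. In the interval, 377 of 421 plus-strand 2CG sites (89.5%) had a minus-strand 2CG site 21 to 25 bp to the right, and 342 of these 377 pairs (90.7%) had the same count. On the chromosome, 87.3% had such a partner, with equal counts in 89.2%. By these measures the pairs of the interval resembled those elsewhere, while 2CG sites were more frequent. Other traits of the pairs were not compared.

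The 2CG share was higher in denser bins, both in the interval and on the rest of the chromosome. Between bins with similar numbers of listed dyads, the interval was still above the rest of the chromosome in each class. These numbers include the dyads of 2CG sites themselves, so a higher share in denser bins can be partly built in. The CG content of the sequence was not matched. In bins of 5 to 9 dyads the share was 11.9% (9.65 to 14.4) against 8.02% (7.87 to 8.16). In bins of 15 to 19 dyads it was 18.1% (15.7 to 20.7) against 11.2% (10.9 to 11.5), and in bins of 20 to 29 dyads 20.02% (17.7 to 22.5) against 13.9% (13.3 to 14.4). In bins of 30 or more it was 28.9% (25.7 to 32.4) against 23.1% (21.2 to 25.1). In alpha every run had at least 22.1% of its CG sites in this class, whereas runs of beta and gamma began at 2.86% and 3.77%.

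Of the 3 sites with the most reads in each subcluster, 6 of 9 belonged to such pairs, the top pair of each subcluster. Since the members of a pair mostly had the same count, the rank of the second followed from that of the first. In alpha the plus-strand CG at 37153887 and the minus-strand CG at 37153909 had 188 reads each, and the plus-strand CG at 37090620 had 174. In beta the pair at 37657344 and 37657366 had 77 reads each, and the CG at 37425596 had 63. In gamma the pair at 37904360 and 37904382 had 103 reads each, and the CG at 37941190 had 71. All 9 were CG, and 7 of them lay in dense bins. The exceptions were the third of alpha, in a bin with 14 dyads, and the third of gamma, in a bin with 6. No site of the interval approached the 1558 reads of the highest site of the chromosome.

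Cytosines outside CG were rare. They made up 20 of the 1337 sites of alpha, all of them CA (13) or CT (7), 44 of the 1049 sites of beta and 39 of the 2159 sites of gamma. The CG share was 98.5% in alpha (97.7 to 99.1), 98.2% in gamma (97.5 to 98.7) and 95.8% in beta (94.4 to 96.9), against 96.8% and 96.6% in the flanks and 93.9% on the chromosome. Alpha and gamma were above both flanks by more than counting error, and beta was not distinguishable from them. No preference for a strand was detectable, with 50.6% of sites on the plus strand in alpha (47.9 to 53.3), 52.7% in beta (49.6 to 55.8) and 49.9% in gamma (47.8 to 52.1). Where both strands of a dyad were listed, their counts differed by more than 3-fold in 21.7%, 18.2% and 20.9% of dyads in alpha, beta and gamma, against 21.4% on the chromosome.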

How the data were processed

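The table holds 1 whole-number read count per listed cytosine, deposited by the authors without scaling and pooled over 2 libraries. Per the labels' protocols, 100 ng of DNA was used and libraries had 16 PCR cycles. Per the submitters' processing notes, CASAVA 1.8.2, Bowtie and the build mm9 were used. The sources used here do not give the read filters, the treatment of PCR copies and of reads with several matches, the rule from cut positions to cytosines or the minimum for listing. The lowest listed count was 2.

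Positions were converted to 1-based coordinates. Bins of 1 kb and windows were counted from the first base of the chromosome, and only bins wholly inside a region were counted. A dyad joined a plus-strand CG with the minus-strand CG 1 base to its right. The centre of a run is the mean position of its dyads. Alternatives were minimum counts of 5 and 10 reads, other borders, bins and thresholds, and classes left out. The functions were tested on simulated sites. Python 3.11.15, numpy 2.4.6, pandas 2.3.3, scipy 1.17.1 and matplotlib 3.10.9 were used.

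The members, subclusters and rules were chosen with earlier results of these data known. In each subcluster the 5 runs with the most dyads, the 3 longest stretches without a site and the 3 sites with the most reads were named by rule, and other features, among them the run past the beta border, were named after their values were seen. The planned placing of promoters and their CG content were not run, because 0 protocadherin promoters were matched in the sequence table used here.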

Additional observations from a re-analysis of the deposited data

How the results depend on the processing

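Over 29 results and 124 alternatives, 79 values stayed within the counting interval (shares) or within a factor of 1.5 (all others), and 45 moved; the cause was not tested beyond what each alternative removes. Values are given for alpha, beta and gamma in turn. A minimum of 10 reads gave 219.6, 187.6 and 637.7 sites per 100 kb, medians of 15 and 14 reads in alpha and beta, 14.8%, 23.6% and 24.6% of dyads on both strands, and CG shares of 99.8%, 98.3% and 99.6%. It left 6, 2 and 17 dense bins with 26.1%, 8.04% and 39.0% of dyads, median distances between runs of 13.0 and 140.0 kb in alpha and beta (a single distance in beta), and 171 and 43 empty bins in alpha and gamma. A minimum of 5 reads gave 24.3%, 25.5% and 34.6% of dyads on both strands, 49.2%, 50.2% and 54.9% of dyads in dense bins, and CG shares of 97.1% and 98.8% in beta and gamma. Without the class 2CG, 20.9%, 25.4% and 33.6% of dyads were on both strands. Bins of 500 bp gave 45, 38 and 74 dense bins, each covering less sequence. Their threshold was scaled to the same density, which whole numbers of dyads make slightly stricter. With 10 dyads per bin, 65.9%, 76.3% and 74.2% of dyads lay in dense bins, of which beta had 37. With 20 dyads per bin these were 42.2%, 26.03% and 39.5%, with 9 and 21 dense bins in beta and gamma and a median distance of 16.6 kb in beta. With the beta border 15 kb further out, an alternative chosen after seeing the data, as was leaving 2CG sites out of the bins, all 9 values of beta stayed within these limits. No paired analysis was possible because the table pools both libraries of the single group, and no fit without a replicate could be made for the same reason. The pooled counts limit every statement here to this table.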
